A study of Mus musculus with 6 samples.

Results

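The transcripts examined here are 35 genes of glycolysis and of the response to low oxygen, found by symbol among the 23420 genes of the deposited gene table of *Foxo1d/d* against *Foxo1f/f* uteri. The list holds 6 hypoxia-inducible factor (HIF) genes and their regulators, 20 genes of glycolysis and pyruvate use, and 9 other genes that HIF induces. All 35 symbols were found. Uteri were taken from C57BL/6J females, 8 weeks of age, at PPD 4.5, in the window of receptivity of a pseudopregnancy brought on by mating with vasectomized males. The control group, *Foxo1f/f*, called controls below, is homozygous for the floxed *Foxo1* allele and carries no Cre. The *Foxo1d/d* group, labelled PgrCre/+ *Foxo1f/f*, carries the same floxed alleles and Cre inserted in *Pgr*, which deletes *Foxo1* in PGR-expressing cells, while other cells of the uterus keep it. Controls lack Cre altogether, and effects of the *PgrCre* allele itself and of the deletion cannot be told apart. Each genotype gave 3 libraries, and RNA of 2 mice was pooled for each.

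The deposited values used here are the authors' mean raw counts over the 3 libraries of each genotype. Values of single libraries were not analysed here, so no spread between pools and no test between the genotypes is given, and a difference below has no replicate check. Ratios below are *Foxo1d/d* over control on the log2 scale, taken from means that were raised by a pseudocount of 1 and scaled to the genotype totals. The interval beside a ratio is a 95% Wilson interval based on all counts of a genotype, and it covers counting error only. A gene is called higher or lower where the ratio passes 1.5-fold and its mean count over both genotypes is at least 10, which 15696 genes reached. Libraries held 26125014 counts on average in controls and 27257963 in *Foxo1d/d*. The deleted gene, *Foxo1*, averaged 3941 counts in controls and 1456 in *Foxo1d/d* uteri, that is 2.82-fold lower after scaling. The floxed part is a single coding exon, so reads from the rest of the transcript can still be counted.

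Glycolysis turns glucose into pyruvate in the cytosol, and lactate dehydrogenase turns pyruvate into lactate, which lets cells make ATP without oxygen. HIF is a dimer of an oxygen-labile alpha subunit, encoded by *Hif1a* or *Epas1*, and the stable beta subunit encoded by *Arnt*. When oxygen is present, prolyl hydroxylases such as those of *Egln1* and *Egln3* mark the alpha subunit for VHL, which directs its breakdown. When oxygen is low, the dimer binds hypoxia response elements (HREs) and raises transcripts of glycolytic enzymes, of glucose transporters and of factors for vessels and matrix. Much of the control lies in protein stability, which transcript counts do not measure. In the uterus around implantation, stromal cells that decidualize are known to use much glucose.

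Of the 35 genes, 34 had a mean count of at least 10, and 30 of these (88.2%) stayed within 1.5-fold, as did 91.1% of all genes tested. Higher in *Foxo1d/d* uteri were *Pfkfb3*, *Hk2* and *Aldoc*, and lower was *Ndrg1*. The 3 higher genes are 8.82% of the 34, while 5.43% of all 15696 genes tested were called higher. The single lower gene is 2.94% of the 34, against 3.51% of all genes tested called lower. Genes with many counts pass 1.5-fold less often. Among the 7103 genes whose mean reached 1000 counts, 1.75% were called higher and 1.42% lower, and of the 26 members in that range *Pfkfb3* was the higher one and *Ndrg1* the lower one, 3.85% each. With 1 to 3 genes behind each of these shares, they are no result about the list as a whole. The median log2 ratio was 0.06 over the 34 members and 0.02 over all genes tested. By role, the median was 0.06 for the 6 HIF factors and regulators, 0.15 for the 19 glycolysis and pyruvate genes that passed the count minimum, and -0.01 for the other HIF-induced genes. Over the members with a mean count of at least 1000, the median was 0.00031 for all, 0.11 for HIF factors and regulators, 0.0034 for glycolysis and pyruvate and -0.14 for the other HIF-induced genes, so the medians depend on that minimum.

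**Figure D1:**
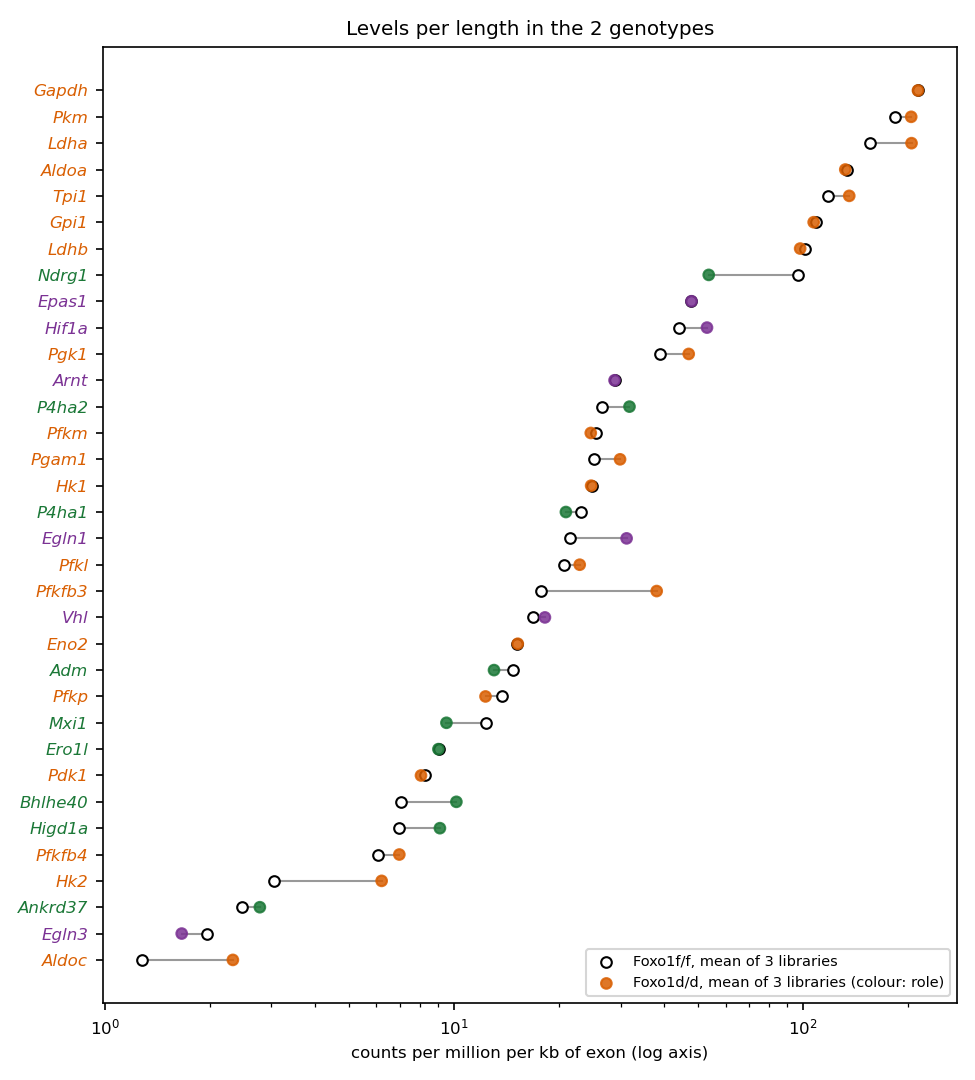
Levels of the 34 members that passed the count minimum, in CPM per kb of exon on a log axis. Open circles are *Foxo1f/f* and filled circles *Foxo1d/d*, each a mean of 3 libraries without error bars, and colours mark the role. *Gapdh*, *Pkm* and *Ldha* stand at the top and *Aldoc* at the bottom, and the longest lines belong to *Pfkfb3*, *Hk2*, *Aldoc* and *Ndrg1*.

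Per length, the members covered a wide range. Levels that compare genes are given as CPM per kb, where CPM stands for the mean count relative to all counts of that genotype and kb is the exon length. In *Foxo1f/f* uteri *Gapdh*, the glyceraldehyde phosphate dehydrogenase gene, stood highest at 213 CPM per kb. *Pkm* (pyruvate kinase) followed at 183, *Ldha* at 155, *Aldoa* at 133, *Tpi1* at 118, *Gpi1* at 109 and *Ldhb* at 101. *Ndrg1* was the most abundant transcript outside the glycolytic enzymes, at 96.6 CPM per kb in controls and 53.7 in *Foxo1d/d*. At the low end were *Hk2* with 3.06, *Ankrd37* with 2.48, *Egln3* with 1.96 and *Aldoc* with 1.28 CPM per kb in *Foxo1f/f*. *Pfkfb3* stood in the middle, at 17.7 CPM per kb in controls and 38.1 in *Foxo1d/d*.

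Several glycolytic genes have near-identical copies in the genome, and reads shared among copies can go uncounted. To show where this bears on the levels, the 90-base windows of each member's transcripts, the length of a trimmed read, were looked up in the transcripts of all other genes. Only exact matches of single windows were sought. The second read of a pair and copies outside annotated transcripts were not considered. For *Gapdh* 74.8% of the windows also occurred in another gene (93 other genes in all), for *Pgk1* 67.2% and for *Pgam1* 40.1%. *Eno1*, the main enolase gene, is listed with a mean count of 0 in controls and 0.67 in *Foxo1d/d*, under the count minimum. Its windows were shared for 48.4%, nearly all with *Eno1b*, and the copy stands in the table under its older name *Gm5506* with mean counts of 105 and 148. With a count near 0, the level of *Eno1* in these uteri is uncertain, and no fold is given. *Gapdh* and *Pgk1*, with larger shared parts, had mean counts of 8335 and 1860 in controls. The part that shared reads play in the *Eno1* value was not tested. *Hk2*, *Pfkfb3* and *Aldoc* had no shared window, and *Ndrg1* had 10.5%. The levels of *Gapdh*, *Pgk1* and *Pgam1* are uncertain because of their shared windows, and their ratios rest on the reads that could be placed.

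The 6 HIF factors and regulators on the list were within 1.5-fold. *Hif1a* averaged 6296 counts in controls and 7877 in *Foxo1d/d* uteri, a ratio of 0.26 (counting interval 0.23 to 0.29). *Epas1*, which encodes the alpha subunit HIF-2alpha and is known from endothelium, had 6889 and 7201, a ratio of 0.0026 (-0.02 to 0.03). *Arnt* had 3645 and 3797, a ratio of -0.0023 (-0.04 to 0.04). The 2 alpha subunits had similar levels per length. *Hif1a* stood at 0.93 times the level of *Epas1* in *Foxo1f/f* and at 1.11 times in *Foxo1d/d*.

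Among the genes that restrain HIF, *Egln1*, the main oxygen-sensing prolyl hydroxylase and itself a HIF target, was 1.46-fold higher in *Foxo1d/d*, just short of the threshold. It averaged 2013 counts in controls and 3059 in *Foxo1d/d* uteri, a ratio of 0.54 (counting interval 0.50 to 0.59). *Egln3*, a hydroxylase that hypoxia induces, was scarce and pointed the other way, with mean counts of 136 and 121 and a ratio of -0.24 (-0.44 to -0.03). *Vhl* had 1228 and 1387, a ratio of 0.11. With the non-member *Egln2* included, the 3 prolyl hydroxylases summed to 63.0 CPM per kb in controls and 74.9 in *Foxo1d/d*, and the share of *Egln1* was 34.0% and 41.7%.

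**Figure D2:**
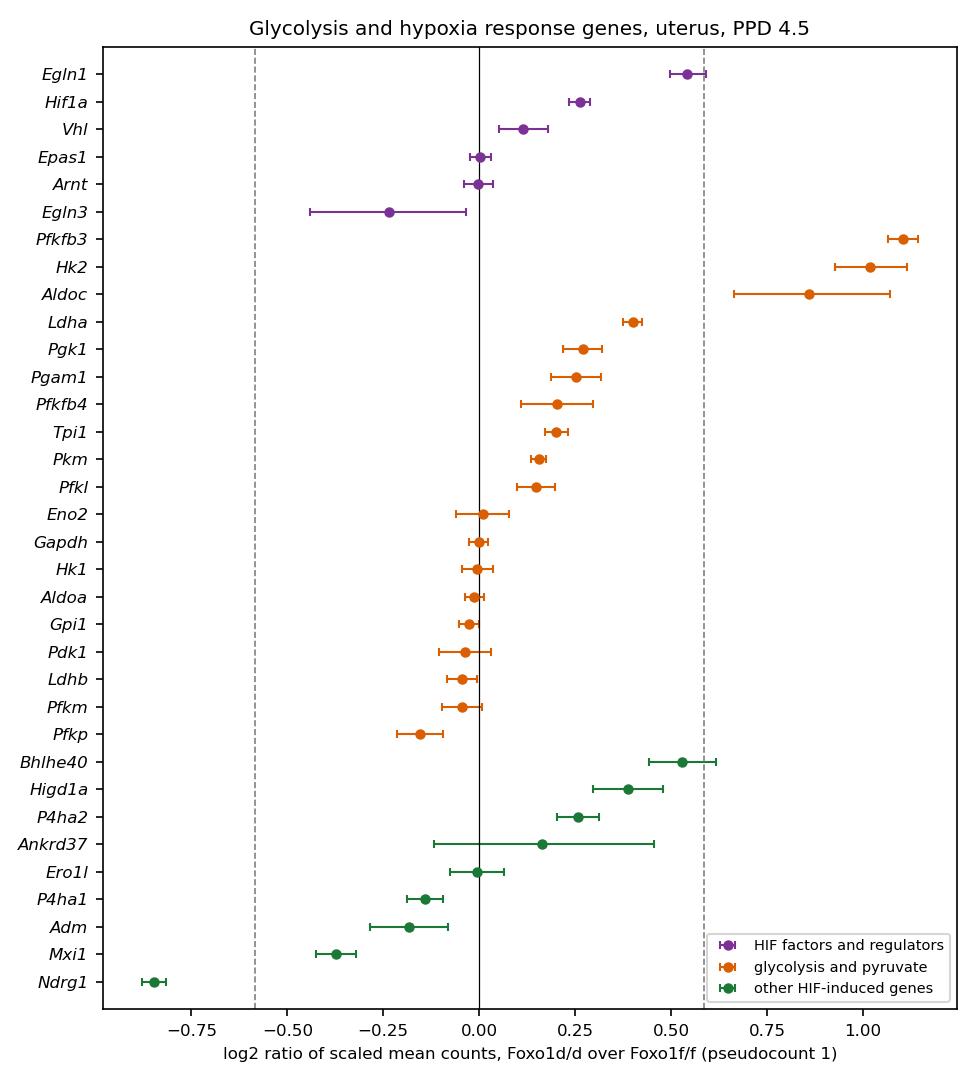
Ratios on the log2 scale, *Foxo1d/d* against control, for the 34 members that passed the count minimum, ordered within each role. Bars are 95% Wilson intervals from summed counts and cover counting error only, and dashed lines mark 1.5-fold. *Pfkfb3*, *Hk2* and *Aldoc* lie right of the upper line and *Ndrg1* left of the lower one, while *Egln1* (0.54) and *Bhlhe40* (0.53) lie just inside.

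At the entry of glycolysis, the 2 hexokinase members differed from each other. Hexokinase phosphorylates glucose and holds it in the cell. *Hk2*, the inducible isoenzyme typical of muscle, fat and growing cells and encoded on chromosome 6 (82725025-82774454), averaged 449 counts in controls and 951 in *Foxo1d/d* uteri. It was 2.03-fold higher, with a log2 ratio of 1.02 (counting interval 0.93 to 1.11). *Hk1*, the widely expressed isoenzyme, had 3143 and 3269 and a ratio of -0.0047 (-0.05 to 0.04). Because *Hk1* is the abundant form, the sum over *Hk1*, *Hk2*, *Hk3* and *Hkdc1* was 29.7 CPM per kb in controls and 33.9 in *Foxo1d/d*. *Hk2* made up 10.3% of that sum in *Foxo1f/f* and 18.3% in *Foxo1d/d*. *Gpi1*, the isomerase of the next step, had 8225 and 8424, a ratio of -0.03.

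The largest ratio among the members belonged to *Pfkfb3* on chromosome 2 (11471430-11554071). Its enzyme makes fructose 2,6-bisphosphate, the strongest activator of phosphofructokinase, and favours synthesis over breakdown of that activator. It averaged 2554 counts in controls and 5731 in *Foxo1d/d* uteri. It was 2.15-fold higher, with a log2 ratio of 1.10 (counting interval 1.07 to 1.14). *Pfkfb4*, a related isoenzyme, had 553 and 664, a ratio of 0.20 (0.11 to 0.30). Over all 4 genes of the family, the summed level was 43.9 CPM per kb in controls and 64.9 in *Foxo1d/d*, and *Pfkfb3* took 40.3% and 58.7% of it. Phosphofructokinase itself, whose subunits *Pfkl*, *Pfkm* and *Pfkp* carry out the committed step, stayed within 1.5-fold. The ratios were 0.15 for *Pfkl*, -0.05 for *Pfkm* and -0.15 for *Pfkp*, and their summed level was 59.8 and 59.9 CPM per kb.

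Promoters of the members called higher are shown because HIF is known to act on *Pfkfb3* and *Hk2* through HREs near the start site. They come from RefSeq on GRCm38.p6, reach from 250 bases before to 50 bases after a start site, and read in the direction of the gene. Capitals mark the HRE core ACGTG or GCGTG on either strand, which appears as CACGT or CACGC when it lies on the other strand, and the FOXO motif GTAAACA on either strand. Where CACGTG occurs, the 2 strands give overlapping matches that were counted as 2. *Pfkfb3* has 2 start sites in the table, and *Aldoc* has 2, of which the outer one is printed.
Hk2 promoter, chr6:82774405-82774704, minus strand: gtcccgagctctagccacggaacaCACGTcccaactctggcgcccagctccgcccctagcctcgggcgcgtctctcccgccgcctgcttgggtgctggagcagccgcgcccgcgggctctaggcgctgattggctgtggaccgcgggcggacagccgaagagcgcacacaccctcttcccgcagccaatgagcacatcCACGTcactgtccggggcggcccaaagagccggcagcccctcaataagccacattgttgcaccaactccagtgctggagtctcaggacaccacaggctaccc
Pfkfb3 promoter, chr2:11553880-11554179, minus strand: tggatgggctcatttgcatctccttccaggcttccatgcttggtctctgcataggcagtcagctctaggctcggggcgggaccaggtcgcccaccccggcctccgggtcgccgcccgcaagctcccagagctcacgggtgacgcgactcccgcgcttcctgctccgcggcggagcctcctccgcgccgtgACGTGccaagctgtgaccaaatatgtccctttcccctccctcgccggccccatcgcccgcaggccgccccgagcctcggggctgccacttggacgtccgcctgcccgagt
Pfkfb3 promoter, chr2:11502041-11502340, minus strand: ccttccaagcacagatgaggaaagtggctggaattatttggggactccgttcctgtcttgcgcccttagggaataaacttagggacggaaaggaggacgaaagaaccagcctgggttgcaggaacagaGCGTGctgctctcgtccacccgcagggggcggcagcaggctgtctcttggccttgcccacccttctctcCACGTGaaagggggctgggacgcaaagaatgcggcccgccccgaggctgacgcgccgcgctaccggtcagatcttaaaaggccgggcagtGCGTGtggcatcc
Aldoc promoter, chr11:78322823-78323122, plus strand: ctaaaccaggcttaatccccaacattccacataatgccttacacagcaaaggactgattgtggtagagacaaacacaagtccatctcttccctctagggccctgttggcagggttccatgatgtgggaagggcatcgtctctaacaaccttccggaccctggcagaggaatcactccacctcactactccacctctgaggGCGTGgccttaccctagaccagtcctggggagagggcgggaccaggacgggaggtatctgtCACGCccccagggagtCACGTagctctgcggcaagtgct

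The *Hk2* promoter holds 2 HRE cores, with first bases 226 and 52 bases before the start site. The outer *Pfkfb3* promoter holds 1, and the inner one 4 by the count of both strands. The *Aldoc* window shown holds 3. None of the 4 windows shown holds the FOXO motif. The inner *Aldoc* window, which is not printed, holds 1 FOXO motif and 1 HRE core. Over the list, 32 of the 35 members matched an entry, all but *Ndrg1*, *Epas1* and *Bhlhe40*, with 47 windows, and 37 of these windows (78.7%) held an HRE core, against 43.8% of all 32851 windows of that length. This share is a description only. Part of the list was chosen for being induced by HIF, and the part of that choice in the share was not tested. *Ldha* had the most in a single window, 7, with a ratio of 0.40, followed by *Hk1* with 5 and a ratio of -0.0047. Windows of *Pfkfb3*, *P4ha2*, *Ankrd37* and *Pfkp* held 4, with ratios of 1.10, 0.26, 0.16 and -0.15. The FOXO motif stood in 2 of the 47 windows, those of the inner *Aldoc* and a *Mxi1* start site, 4.26% against 3.65% of all windows. Binding was not measured here, and a match of letters is not a site in use.

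In the middle of the pathway, *Aldoc* was the only other member called. Aldolase splits fructose 1,6-bisphosphate, and *Aldoc*, on chromosome 11 (78323073-78327781), is the isoenzyme known from brain. It averaged 99.3 counts in controls and 189 in *Foxo1d/d* uteri, that is 1.82-fold higher, a log2 ratio of 0.86 (counting interval 0.66 to 1.07). *Aldoa*, the common form, had 8923 and 9228 and a ratio of -0.01, and *Aldoc* was 0.95% of the summed aldolase level in *Foxo1f/f* and 1.73% in *Foxo1d/d*. *Tpi1* (triose phosphate isomerase) had a ratio of 0.20, *Pgk1* (phosphoglycerate kinase) of 0.27 and *Pgam1* (phosphoglycerate mutase) of 0.25. *Gapdh* had mean counts of 8335 and 8685 and a ratio of -0.0020 (-0.03 to 0.02). *Eno2*, the neuronal enolase, had 1106 and 1161, a ratio of 0.01. *Pkm* had the largest counts of the list, 12431 and 14438, and a ratio of 0.15 (0.13 to 0.17).

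Both lactate dehydrogenase genes were within 1.5-fold. *Ldha*, whose subunit favours the making of lactate, averaged 7667 counts in controls and 10551 in *Foxo1d/d* uteri, a ratio of 0.40 (counting interval 0.37 to 0.42), or 1.32-fold. *Ldhb*, whose subunit favours the use of lactate, had 3445 and 3484, a ratio of -0.05 (-0.08 to -0.01). Per length, *Ldha* stood at 1.53 times *Ldhb* in *Foxo1f/f* and at 2.08 times in *Foxo1d/d*. *Pdk1*, a kinase that shuts pyruvate dehydrogenase and a classical HIF target, had 1119 and 1138, a ratio of -0.04 (-0.11 to 0.03).

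**Figure D3:**
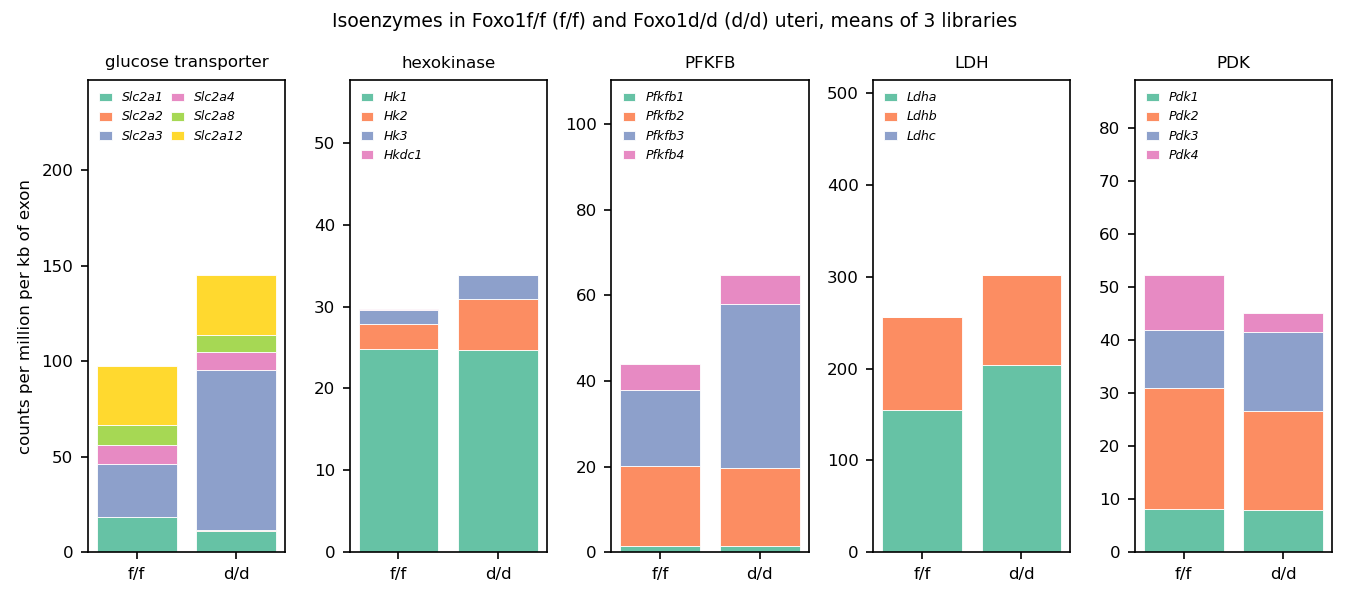
Stacked levels of isoenzymes in CPM per kb of exon, with a linear axis from 0 of its own in each panel and bars for *Foxo1f/f* (f/f) and *Foxo1d/d* (d/d), means of 3 libraries without error bars. PFKFB is the enzyme of fructose 2,6-bisphosphate, LDH lactate dehydrogenase and PDK pyruvate dehydrogenase kinase. *Slc2a3* and *Pfkfb3* fill a larger part of the *Foxo1d/d* bar, and *Pdk4* and *Slc2a1* a smaller one.

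The other HIF-induced genes pointed both ways. *Ndrg1*, a stress and differentiation gene on chromosome 15 (66929318-66969641, GRCm38.p6) that hypoxia raises in many cells, averaged 7289 counts in controls and 4226 in *Foxo1d/d* uteri. It was 1.80-fold lower, with a log2 ratio of -0.85 (counting interval -0.88 to -0.82). *Mxi1*, a repressor that opposes MYC, had 2145 and 1728, a ratio of -0.37 (-0.43 to -0.32). *Adm*, the vasodilator peptide adrenomedullin, had 537 and 494, a ratio of -0.18 (-0.28 to -0.08). Among the genes with positive ratios, *Bhlhe40*, a repressor linked to hypoxia and the clock, had 583 and 878. Its ratio of 0.53 (0.44 to 0.62) was just short of 1.5-fold. *Higd1a*, a mitochondrial protein gene, had 552 and 753, a ratio of 0.39.

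The 2 collagen prolyl hydroxylase subunits differed in sign. *P4ha1* had mean counts of 2483 and 2347, a ratio of -0.14 (counting interval -0.19 to -0.10), and *P4ha2* had 1626 and 2029, a ratio of 0.26 (0.20 to 0.31). *Ero1l*, which makes disulfide bonds in the endoplasmic reticulum, had 1046 and 1088, a ratio of -0.0054 (-0.08 to 0.07). *Ankrd37*, often used as a marker of HIF activity, had only 60.0 and 70.3, and the interval of its ratio, -0.12 to 0.45, includes 0. Of these 9 genes, 4 had a ratio above 0 and 5 below.

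**Figure D4:**
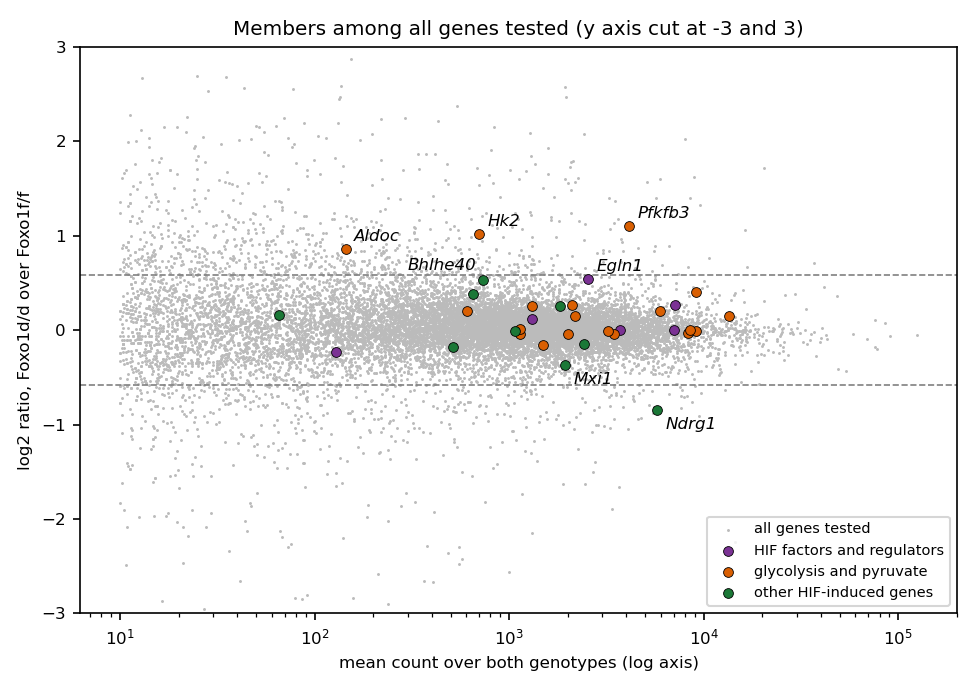
Log2 ratio against mean count over both genotypes (log axis) for the 15696 genes tested, in grey, with the members coloured by role and dashed lines at 1.5-fold. The y axis ends at 3 in both directions, which leaves out 28 grey genes. *Pfkfb3* and *Ndrg1* lie outside the dense band of genes with like counts, and most members lie in it.

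Other genes of these pathways were taken from lists of functions. The lists were chosen with earlier results of these data known, so the shares below are a description only. The 7 lists hold 92 genes, all found, of which 84 had a mean count of at least 10. Of the 84, 6 (7.14%) were called higher and 7 (8.33%) lower, against 5.43% and 3.51% of all genes tested, with a median log2 ratio of 0.07. Most of the lists are so short that a single gene exceeds these shares. For glucose and lactate transport, 2 of 10 were higher and 1 lower, against 5.43% and 3.51% of all genes tested. *Slc2a3*, the high-affinity glucose transporter GLUT3, averaged 2868 counts in controls and 9090 in *Foxo1d/d* uteri, or 3.04-fold higher, a log2 ratio of 1.60 (counting interval 1.57 to 1.64). *Slc2a1*, the widely expressed transporter GLUT1 and a HIF target, had 1557 and 1016, a ratio of -0.68 (-0.74 to -0.61). Per length *Slc2a3* stood at 1.52 times *Slc2a1* in *Foxo1f/f* and at 7.37 times in *Foxo1d/d*. *Slc5a1*, a sodium-coupled glucose transporter, had 114 and 192, a ratio of 0.69. The lactate exporter *Slc16a3*, which was not called, had 135 and 191, a ratio of 0.44. Of the other carriers of its family on the list, *Slc16a1* had 1198 and 1219, a ratio of -0.04. *Slc16a7* had 110 and 114, a ratio of -0.0058.

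Among other glycolytic isoenzymes, 1 of 11 was higher and 1 lower (9.09% each, against 5.43% and 3.51% of all genes tested), both with few counts. *Hk3*, the hexokinase of leukocytes, had mean counts of 147 and 262, a ratio of 0.77. *Hkdc1* had 15.7 and 10, a ratio of -0.66 (-1.36 to -0.05). Of the 12 genes that carry pyruvate into mitochondria or make up and control pyruvate dehydrogenase, *Pdk4* alone was called, lower, which is 8.33% against 3.51% of all genes tested. *Pdk4*, a kinase that shuts pyruvate dehydrogenase in fasting and is a known target of FOXO factors, averaged 951 counts in controls and 339 in *Foxo1d/d* uteri, a ratio of -1.55 (-1.65 to -1.45). The summed level of the 4 kinases was 52.3 CPM per kb in controls and 45.1 in *Foxo1d/d*. The share of *Pdk4* in it was 20.0% in controls and 7.92% in *Foxo1d/d*. *Pdk3*, which was not called, had 20.9% and 32.9% and a ratio of 0.44. *Pdk2*, the most abundant of the 4 per length, had a ratio of -0.28.

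Of the gluconeogenesis list, 4 of 7 genes passed the count minimum, and 1 was higher and 1 lower, against 5.43% and 3.51% of all genes tested. *Pcx*, whose enzyme carboxylates pyruvate to oxaloacetate, had 3139 and 6011, a ratio of 0.88 (counting interval 0.84 to 0.91). *Pck1*, a further known FOXO target, had 623 and 394, a ratio of -0.72 (-0.83 to -0.62). None of the 7 pentose phosphate genes was called, which at these background shares is no result about the list, and their ratios ran from 0.01 for *Pgd* to 0.33 for *Tkt*. Of 9 other HIF pathway components, none was higher and 2 (22.2%) were lower, against 3.51% of all genes tested. *Hif3a*, an alpha subunit with a restraining role, had 1787 and 1151, a ratio of -0.70, and *Arnt2*, a relative of *Arnt*, had 2071 and 1272, a ratio of -0.76.

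Of 31 other hypoxia-induced genes, 2 (6.45%) were called higher, 1 (3.23%) lower and 28 neither, shares near the 5.43% and 3.51% of all genes tested, and their median log2 ratio was 0.06. *Igfbp3*, a binding protein of insulin-like growth factors, averaged 23774 counts in controls and 5250 in *Foxo1d/d* uteri, a ratio of -2.24 (counting interval -2.27 to -2.22). *Car12*, a carbonic anhydrase of epithelia, had 2495 and 7710, a ratio of 1.57, and *Stc2* had 462 and 751, a ratio of 0.64. The ratios of the 28 genes that were not called ran from -0.45 for *Lox*, which crosslinks collagen, to 0.50 for *Vegfa*, the endothelial growth factor.

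**Figure D5:**
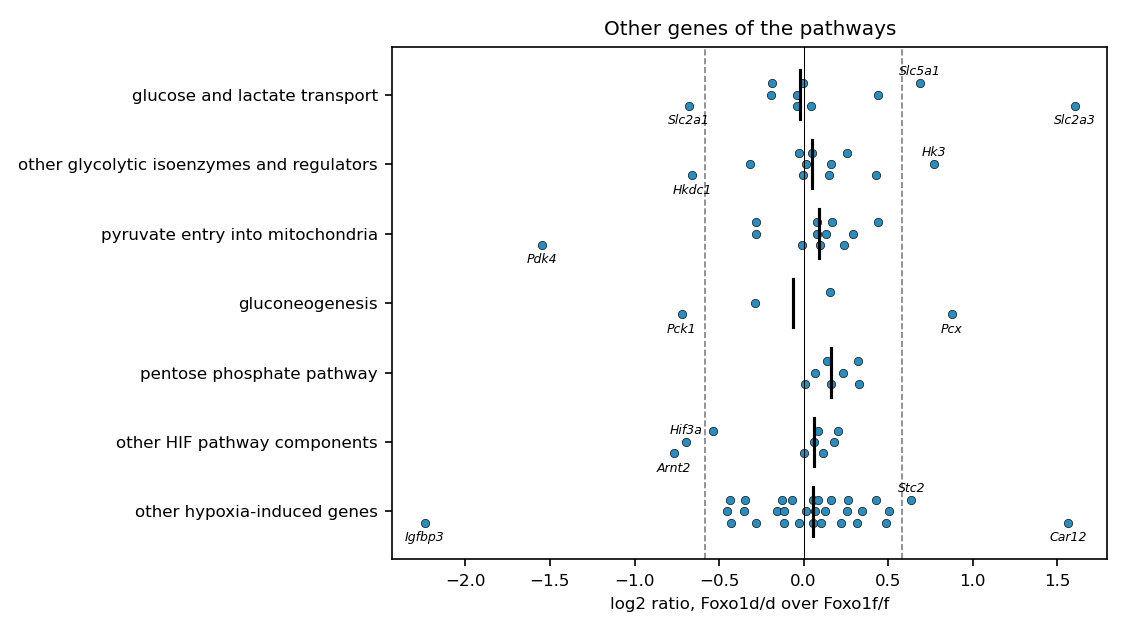
Ratios on the log2 scale, *Foxo1d/d* against control, for 84 genes on 7 lists of pathway genes, a point per gene, with the median of each list as a black bar and dashed lines at 1.5-fold. Named points lie past 1.5-fold, and the outermost are *Igfbp3* (-2.24), *Pdk4* (-1.55), *Slc2a3* (1.60) and *Car12* (1.57).

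The RNA came from whole uteri, so fewer cells of a type and less RNA per cell cannot be told apart. All 4 adipocyte markers were higher in *Foxo1d/d*, from 3.28-fold for *Fabp4* to 4.69-fold for *Cidec*, and their summed level was 9.91 CPM in controls and 35.6 in *Foxo1d/d*. The 4 leukocyte markers had ratios from 0.13 for *Cd68* to 0.40 for *Ptprc* (summed 262 and 316 CPM). The 5 epithelial markers had ratios from -0.03 for *Krt18* to 1.22 for *Krt19* (551 and 644 CPM). Ratios were -0.26 to -0.06 for 5 stromal markers (3657 and 3257 CPM), -0.43 to -0.15 for 4 smooth muscle markers (4927 and 3971 CPM) and -0.22 to -0.19 for 4 endothelial markers (1030 and 887 CPM). Of the gland markers, *Foxa2* had a ratio of 0.04, *Spink3* of -4.70 and *Cxcl15*, listed as *Il8*, of 0.96 (141 and 38.8 CPM). Of 4 skeletal muscle markers, *Myh4* was at 0 and the ratios were -0.67 for *Ckm*, -0.02 for *Acta1* and 0.11 for *Mylpf* (97.3 and 95.4 CPM). Both red blood cell markers, *Hba-a1* and *Hbb-b1*, were listed at 0, but these genes have near-identical copies and their zeros do not measure blood. The beta globin row *Beta-s* averaged 1087 counts in controls and 2528 in *Foxo1d/d* uteri, a ratio of 1.16. Of other genes of red cells, also looked up after the results were known, *Alas2* (heme synthesis) had a ratio of 1.39, *Hemgn* of 0.75 and *Klf1* of 0.07, the last 2 at a mean count just over the minimum. The part of these shifts in the values of *Hk2*, *Hk3*, *Pfkfb3* or *Slc2a3* was not tested.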

How the data were processed

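RNA of *Foxo1f/f* and *Foxo1d/d* uteri (3 libraries each) was sequenced as paired-end reads. The authors trimmed the reads, mapped them with STAR, removed duplicates with picard, counted them over RefSeq genes by HTSeq and tested genotype differences in edgeR. The study's methods name mm10, while the submitters' processing notes name mm9, and versions are not given in the sources used here. The deposited table holds mean raw counts per genotype, which were used, and the authors' fold change, average log2 CPM, p-value and FDR, which were not. All 23420 pairs of means are whole to within 1e-06 after multiplication by 3.

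The planned fit across genes needed values of single libraries, so no model was fitted. Ratios and intervals were computed in Python 3.11.15 with numpy 2.4.6 and pandas 2.3.3 and tested on simulated data. The simulated counts held counting error only, so the test says nothing about spread between pools. Exon lengths are the union of exons of GENCODE basic transcripts on GRCm38. Promoters came from RefSeq on GRCm38.p6, and older symbols were matched through RefSeq synonyms. The members, the pathway lists and the marker lists were chosen with earlier results of these data known, and 2 genes are not reported here. Named were all members, and pathway genes past 1.5-fold, at most 3 in each direction of a list. *Gm5506*, *Egln2* and genes of red cells other than *Hba-a1* and *Hbb-b1* were added after their values were seen. So were *Slc16a1*, *Slc16a3*, *Slc16a7*, *Lox*, *Vegfa*, *Pdk2*, *Pdk3*, *Pgd* and *Tkt*.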

Additional observations from a re-analysis of the deposited data

How the results depend on the processing

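No paired analysis was possible because only the mean counts of each genotype were used, and for the same reason no library could be left out. Pseudocounts of 0.1 and 10, centring on the median gene and a total without the 100 genes with the most counts moved 3 of 136 values of the 34 members by more than counting error (*Aldoa*, *Pkm* and *Ldha* under the centring) and reversed none of the 4 members called. The sign of *Epas1* and *Eno2*, both within 0.01 of 0, changed under a scaling. Members called higher were 7 at a lower threshold of 0.32 on the log2 scale and 2 at 2-fold (*Aldoc* was not called). Without a count minimum 4 were called higher, among them *Eno1*, whose level is uncertain, with mean counts of 0 and 0.67. With a mean count of at least 1000, 1 was called higher. Members called lower were 2 at that lower threshold and 0 at 2-fold. Of all genes, 12.5% were higher and 8.996% lower at the lower threshold, and 1.99% and 1.40% at 2-fold. Without a count minimum these shares were 6.78% and 4.85%. They were 3.17% and 2.14% with a mean count of at least 100, and 1.75% and 1.42% with at least 1000. The median log2 ratio of the members was 0.11 without a count minimum, 0.0087 with a minimum of 100 and 0.00031 with 1000. With a minimum of 1000 the median was 0.11 for HIF factors and regulators and 0.0034 for glycolysis and pyruvate. For the other HIF-induced genes it was -0.074 with a minimum of 100 and -0.14 with 1000. Without single libraries, the spread between pools limits every difference here, and it is not known from these means.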
